A study of Mus musculus with 23 samples.

Results

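The genes described here are those whose testis RNA was high in the mouse strain C57BL/6J and low in both CAST/EiJ and NZO/HlLtJ. They were chosen on measured values. A gene was kept where its mean over the C57BL/6J libraries of both diets was at least 2 CPM (counts per 1e+06 counts of the library) and at least 4 times the higher of the means of the other strains. After genes with provisional names (Gm and a number, or ending in Rik) and some large families were set aside, 48 of 28861 genes remained, from 113 before those 65 were dropped. Because the strain means chose them, the strain differences below are a description and carry no test, except where genes were chosen on the libraries of 1 diet and tested on those of the other.

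The study sequenced polyA RNA from testes of wild-type males of 3 inbred strains. Mice of each strain were fed from 6 weeks of age either a control chow of 10% fat or a high-fat, high-sugar chow of 44% fat, both with fiber per the labels, and testes were taken at 16 weeks. C57BL/6J, the strain of the mouse reference genome, gave 4 libraries on each diet, CAST/EiJ, a wild-derived strain, 3 on 10% and 4 on 44% fat, and NZO/HlLtJ, a strain prone to obesity and diabetes, 4 on each. Totals per library were 21.9 to 38.4 M (1e+06) estimated counts for C57BL/6J, 33.0 to 78.7 M for CAST/EiJ and 31.9 to 43.4 M for NZO/HlLtJ. The labels do not name the animal behind each library, so p values measure the spread between these samples.

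A gene can be read as strain-specific for several reasons that a count table does not separate. Inbred strains differ in promoters and enhancers, in gene copies and in the retroviral and repeat insertions near a gene, and testis is known for transcribing many young genes, pseudogenes and antisense RNAs. Reads of a strain that differs from the reference can also fail to align to it, which lowers that strain's count. The files were counted on the GRCm38 build, whose sequence is C57BL/6J, and the sources used here do not state how strain variants were handled. The part of alignment in the strain differences was not tested. As background for the counts below, of all 22873 genes tested with edgeR 34.1% were higher and 32.7% lower in C57BL/6J than in CAST/EiJ, and 28.7% were higher and 30.4% lower than in NZO/HlLtJ, with medians of 0.00 and -0.01 on the log2 scale. TMM scaling centres these differences, so their balance is no measure of lost alignment. Genes higher in C57BL/6J than in both other strains were 14.5% of all genes tested, and those lower than in both 13.5%.

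The reference sequence itself shows which members share sequence of read length with genes elsewhere in the genome. Some of the 48 are near-identical to genes elsewhere, and 100 bases of them are shown because that is the length of 1 read. Ppp1r2-ps1 is a processed pseudogene of Ppp1r2, which encodes an inhibitor of protein phosphatase 1. It lies on chr17:6324025-6324642 (GRCm38, minus strand), and Ppp1r2-ps6 lies on the same chromosome with 99.8% identity. In these windows of the GENCODE M21 transcripts, starting at base 325 of both pseudogenes and base 632 of Ppp1r2, capitals mark the positions at which any of the 3 differ. The window of Ppp1r2-ps6 differs from that of Ppp1r2-ps1 at 1 position and that of Ppp1r2 at 3.
Ppp1r2-ps1: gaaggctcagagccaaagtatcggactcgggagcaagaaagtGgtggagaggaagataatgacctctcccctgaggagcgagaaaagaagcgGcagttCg
Ppp1r2-ps6: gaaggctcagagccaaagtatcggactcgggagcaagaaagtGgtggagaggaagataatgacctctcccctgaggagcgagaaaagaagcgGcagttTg
Ppp1r2: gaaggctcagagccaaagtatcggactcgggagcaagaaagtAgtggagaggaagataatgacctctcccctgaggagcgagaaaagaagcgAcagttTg
Znf41-ps, a zinc finger pseudogene on chr4:145825237-145829942 (plus strand), is 99.5% identical to Gm13139 and 99.3% to Gm13251, both annotated as coding genes on chromosome 4. Its window starts at base 1228 of the transcript, and those of Gm13139 and Gm13251 differ from it at 2 and 3 positions, again in capitals.
Znf41-ps: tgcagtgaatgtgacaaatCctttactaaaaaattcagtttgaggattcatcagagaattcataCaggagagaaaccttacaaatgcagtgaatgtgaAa
Gm13139: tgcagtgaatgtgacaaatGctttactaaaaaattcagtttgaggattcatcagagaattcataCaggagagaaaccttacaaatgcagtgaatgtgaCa
Gm13251: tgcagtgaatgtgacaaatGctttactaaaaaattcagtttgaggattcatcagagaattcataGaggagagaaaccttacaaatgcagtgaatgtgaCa
Over all 48 members, 38 shared no 100-base window with a gene elsewhere in the genome. More than 50% of windows were shared in 4 members, namely RP23-361O12.4 (92.9%), BB287469 (91.3%), Ppp1r2-ps1 (80.7%) and Znf41-ps (77.3%), and 1 to 50% in 4 more. Windows shared with a gene that overlaps the member are not in these counts. They were 38.5% in Tmsb15b1, 34.4% in Ovgp1 and 17.7% in Eps8l3, among others, so reads there need not be unique to the member.

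Agt, Galntl6 and Grtp1 shared no such window with a distant gene, and 0%, 3.28% and 2.68% of windows with an overlapping gene. The 250 bases before their RefSeq starts (GRCm38.p6) are shown because the strain difference of these genes was the largest among coding members with at least 30 CPM, and capitals mark matches on either strand to the TATA box letters TATAAA, to the CCAAT box, to the GC box letters GGGCGG or to the cAMP response element TGACGTCA. The Agt window, chr8:124569707-124569956 on the minus strand, held TATAAA at 30 bases before the start. That of Galntl6, chr8:58911628-58911877 on the minus strand, held TATAAA at 139 and CCAAT at 78 bases before the start. That of Grtp1, chr8:13200625-13200874 on the minus strand, held 5 matches to GGGCGG.
Agt: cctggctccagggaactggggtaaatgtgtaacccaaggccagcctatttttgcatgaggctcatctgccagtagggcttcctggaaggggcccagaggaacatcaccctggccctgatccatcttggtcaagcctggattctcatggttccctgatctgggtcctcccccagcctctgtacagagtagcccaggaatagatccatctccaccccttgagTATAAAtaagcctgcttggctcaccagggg
Galntl6: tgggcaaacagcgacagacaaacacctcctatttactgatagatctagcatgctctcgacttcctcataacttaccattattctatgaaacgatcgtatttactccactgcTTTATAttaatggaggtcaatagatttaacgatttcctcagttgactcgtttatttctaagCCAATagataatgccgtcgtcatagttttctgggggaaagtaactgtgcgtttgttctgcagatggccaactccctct
Grtp1: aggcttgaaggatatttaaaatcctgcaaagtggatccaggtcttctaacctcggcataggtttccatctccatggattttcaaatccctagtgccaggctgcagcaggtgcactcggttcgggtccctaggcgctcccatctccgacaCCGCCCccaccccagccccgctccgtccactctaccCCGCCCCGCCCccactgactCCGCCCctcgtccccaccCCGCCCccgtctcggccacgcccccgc
RefSeq promoter windows (250 bases before to 50 after a start) were found for 34 members. TATAAA occurred in 7 of them (20.6%, against 14.2% of 27025 genes), CCAAT in 19 (55.9% against 37.9%), GGGCGG in 8 (23.5% against 35.9%) and TGACGTCA in 1 (2.94% against 1.88%). These are matches in the reference strain and say nothing of the letters in CAST/EiJ or NZO/HlLtJ.

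All 48 members had every C57BL/6J library above every library of the other strains. This is fixed in large part by the choice, and nothing is read from it. Among all 28861 genes 4.22% had that property, and among those with a C57BL/6J mean of at least 2 CPM 6.57%. The C57BL/6J mean was at least 10 CPM in 15 members, from 5 to 10 CPM in 10 and under 5 CPM in 23. The ratio of that mean to the higher other mean had a median of 8.70 and ran from 4.04 to 252. It was at least 20 in 14 members, 10 to 20 in 9 and under 10 in 25. Within C57BL/6J the libraries lay close together, with a median coefficient of variation of 10.6% over members and a range from 4.61% to 37.0%, the highest in BB287469.

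Between CAST/EiJ and NZO/HlLtJ the members went both ways. The CAST/EiJ mean was the higher of the other means in 25 members and the NZO/HlLtJ mean in 23. In 12 members all CAST/EiJ libraries lay above all NZO/HlLtJ libraries, in 8 the reverse held, and in 28 the ranges overlapped. Among all 28861 genes the first held for 13.2% and the reverse for 24.1%, and among those with a C57BL/6J mean of at least 2 CPM for 17.5% and 35%. Just inside the 4-fold limit stood Aox4 with a ratio of 4.04, Ovgp1 with 4.06 and Kcnab3os with 4.19. Just outside stood Tnfsf13os with 3.96, Calml3 with 3.69 and Zfp607 with 3.65.

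**Figure D1:**
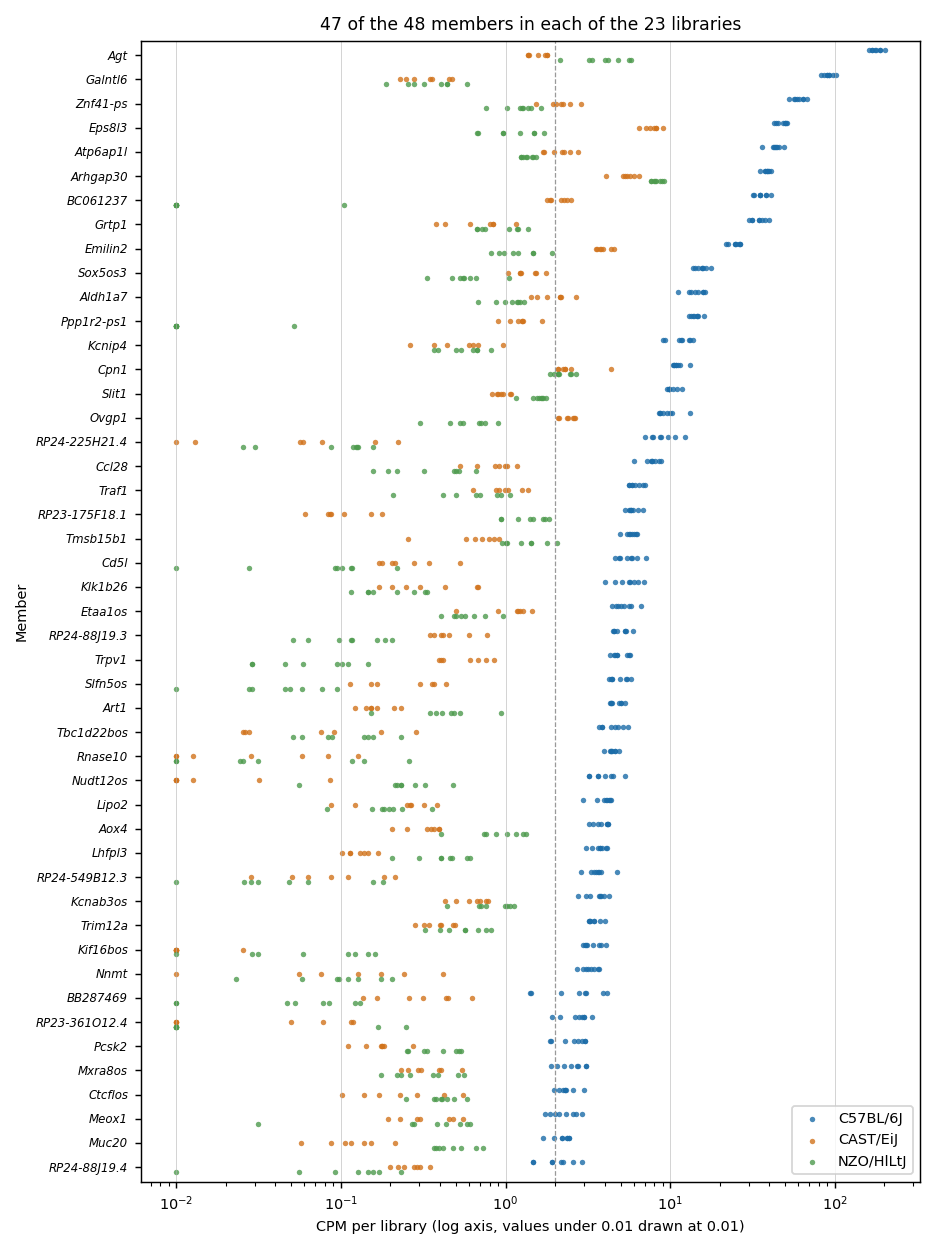
CPM of 47 of the 48 members (rows, ordered by C57BL/6J mean) in each library on a log axis, with points coloured by strain, values under 0.01 drawn at 0.01 and a dashed line at 2 CPM. In every row the C57BL/6J points lie to the right of all others, by ratios of means from 4.04 (Aox4) to 252 (Galntl6).

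Angiotensinogen (Agt), the precursor from which renin cuts angiotensin I, was abundant in C57BL/6J testis and scarce in the others. Its gene lies on chr8:124556534-124569706 (minus strand). In C57BL/6J the libraries stood at 189, 169, 175 and 162 CPM on 10% fat and at 187, 178, 168 and 201 CPM on 44% fat. In CAST/EiJ they stood at 1.36, 1.36 and 1.78 CPM on 10% fat and 1.73, 1.40, 1.57 and 1.78 CPM on 44% fat. In NZO/HlLtJ they stood at 2.15, 3.34, 3.23 and 5.66 CPM on 10% fat and 5.80, 4.04, 4.83 and 4.20 CPM on 44% fat. The C57BL/6J libraries thus all lay at or above 162 CPM and the others at or under 5.80 CPM, and all NZO/HlLtJ libraries lay above all CAST/EiJ libraries. Means were 178.6 ± 13.0 (SD, n = 8), 1.57 ± 0.195 (n = 7) and 4.16 ± 1.25 CPM (n = 8), a ratio of 43.0 to the higher. Per kilobase of exon, Agt had 94.4 CPM in C57BL/6J, the most among the members, ahead of Atp6ap1l with 33.9.

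Other genes of the renin-angiotensin system did not share this pattern as a group. Of 12 others tested, 5 were higher and 6 lower in C57BL/6J than in CAST/EiJ, and 3 were higher and 5 lower than in NZO/HlLtJ (edgeR, against 34.1% and 32.7%, and 28.7% and 30.4%, of all genes). Ren1, which encodes renin, was lower in C57BL/6J than in both, at 0.622 against 8.73 and 2.38 CPM. Agtr1a, a receptor for angiotensin II, was at 18.2 CPM for C57BL/6J, 0.639 for CAST/EiJ and 13.3 for NZO/HlLtJ, higher in C57BL/6J than in both. Ace, the converting enzyme, of which testis makes a germ cell form, was at 640, 572 and 591 CPM, 0.14 ± 0.05 (log2, SE) above CAST/EiJ and 0.19 ± 0.05 above NZO/HlLtJ (edgeR, adjusted p = 0.0192 and 0.00147).

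Galntl6 had the largest ratio of all members, 252. It belongs to the family of enzymes that start mucin-type O-glycans by adding N-acetylgalactosamine to proteins, and it lies on chr8:57774052-58912640 (minus strand). The C57BL/6J libraries stood at 82.4, 89.7, 102 and 90.2 CPM on 10% fat and 92.2, 92.1, 97.6 and 86.3 CPM on 44% fat. The 7 CAST/EiJ libraries lay between 0.228 and 0.472 CPM and the 8 NZO/HlLtJ libraries between 0.188 and 0.583 CPM, so these strains overlapped each other. The deposited counts behind this were 24864 for C57BL/6J, 101 for CAST/EiJ and 107 for NZO/HlLtJ. Galnt7, its neighbour 121020 bases away and of the same family, was at 16.3, 12.2 and 18.2 CPM. Of 18 other genes of O-glycan initiation and elongation tested, 5 were higher and 8 lower in C57BL/6J than in CAST/EiJ, and 4 were higher and 6 lower than in NZO/HlLtJ.

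Grtp1 encodes a protein with a TBC domain, a fold known from proteins that switch off Rab GTPases of membrane traffic. It stood at 39.8, 37.6, 31.3 and 31.5 CPM in C57BL/6J on 10% fat and at 34.6, 30.1, 34.6 and 36.0 CPM on 44% fat. CAST/EiJ libraries lay between 0.381 and 1.15 CPM and NZO/HlLtJ libraries between 0.668 and 1.38 CPM, a ratio of 36.2. Its exons share 249 bases with Lamp1 on the opposite strand, a lysosomal membrane protein gene, which was at 467, 458 and 490 CPM and passed neither strain comparison (edgeR, adjusted p = 0.966 and 0.873).

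**Figure D2:**
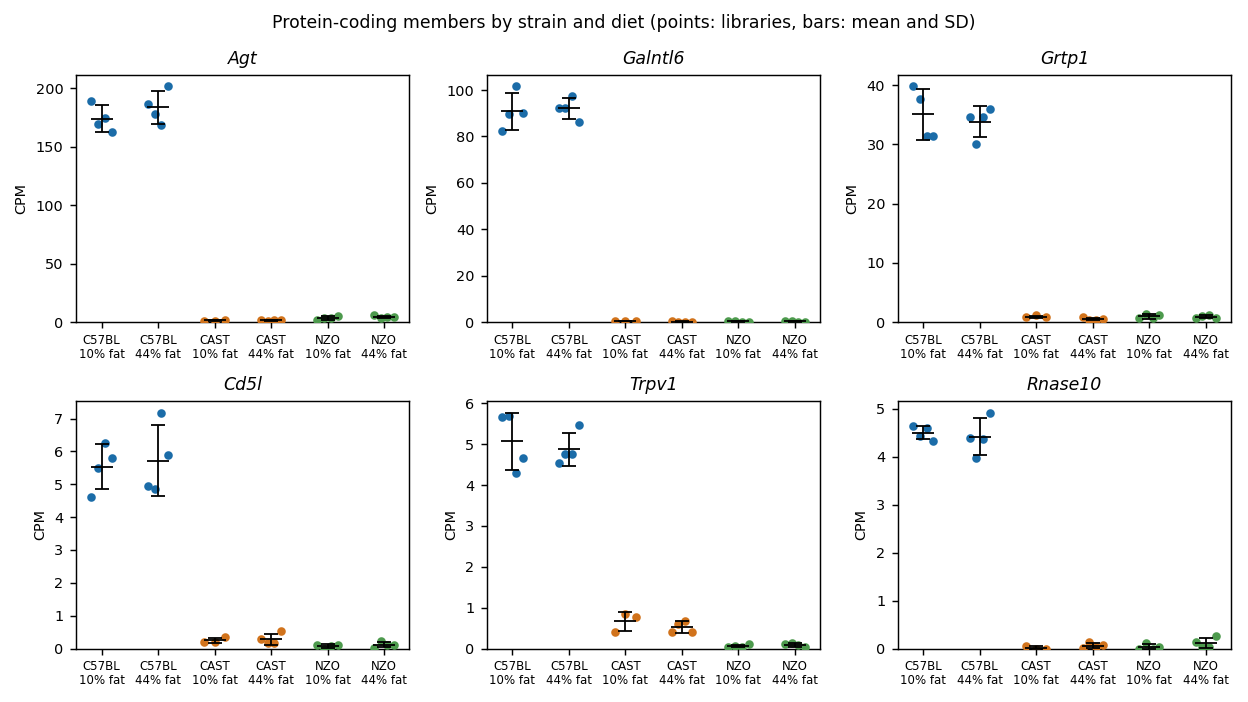
CPM of 6 coding members in the 6 groups of strain and diet, with 1 point per library and bars for mean and SD on linear axes from 0. Within C57BL/6J the diets overlap for each gene, and all CAST/EiJ and NZO/HlLtJ points lie near 0, the highest being 5.80 CPM for Agt.

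Regulators of small GTPases and the cytoskeleton were among the coding members. Arhgap30, a GTPase-activating protein, was at 38.5 ± 1.77 CPM for C57BL/6J, 5.45 ± 0.741 for CAST/EiJ and 8.27 ± 0.582 for NZO/HlLtJ. Its neighbour Pvrl4, an adhesion protein gene 356 bases away, was also higher in C57BL/6J, at 10.9, 1.49 and 3.55 CPM, while Usf1, 1015 bases away on the other side, was lower, at 13.3, 15.5 and 16.9 CPM. Eps8l3, a relative of the actin regulator Eps8, was at 47.6 ± 3.22 CPM against 7.79 ± 0.825 and 1.15 ± 0.387. For Eps8l3 the other strains did not overlap, with CAST/EiJ from 6.49 to 9.01 and NZO/HlLtJ from 0.674 to 1.70 CPM. Tmsb15b1, an actin-binding thymosin beta gene on the X chromosome, was at 5.77 CPM against 0.679 and 1.36. Its exons overlap those of Tmsb15l and Tmsb15b2 on the same strand, and the sum of the 3 genes was 19.299 CPM for C57BL/6J, 27.4 for CAST/EiJ and 16.2 for NZO/HlLtJ, so the sum did not show the pattern.

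Secreted and matrix proteins formed another part. Emilin2, of the elastin-associated matrix proteins, was at 24.7 ± 1.84 CPM for C57BL/6J, 3.94 ± 0.388 for CAST/EiJ and 1.23 ± 0.367 for NZO/HlLtJ. Slit1, an axon guidance ligand of Robo receptors, was at 10.3 ± 0.771, 0.952 ± 0.0926 and 1.57 ± 0.189 CPM, with all NZO/HlLtJ libraries above all CAST/EiJ libraries. Cpn1, the catalytic subunit of the plasma enzyme carboxypeptidase N, was at 11.1 ± 0.911, 2.56 ± 0.809 and 2.22 ± 0.286 CPM. Ovgp1, the oviduct glycoprotein, was at 9.74 ± 1.53, 2.40 ± 0.231 and 0.612 ± 0.188 CPM, close to the 4-fold limit. The chemokine Ccl28 was at 7.73 ± 0.852, 0.879 ± 0.217 and 0.382 ± 0.185 CPM. Muc20, a membrane mucin, was at 2.21, 0.124 and 0.495 CPM. It shares 627 exonic bases with Muc4 on the opposite strand, which was at 32.1, 3.62 and 36.4 CPM.

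Enzymes and membrane proteins were mostly low in level. Atp6ap1l, named for its likeness to an accessory subunit of the vacuolar proton pump, was at 43.4 ± 3.77 CPM against 2.15 ± 0.390 and 1.36 ± 0.106. Aldh1a7, an aldehyde dehydrogenase, was at 14.3 ± 1.76 CPM against 1.98 ± 0.430 and 1.07 ± 0.204. Kcnip4, a calcium-binding partner of Kv4 potassium channels, was at 11.6 ± 1.72 CPM against 0.565 ± 0.235 and 0.573 ± 0.153. Pacrgl on its opposite strand shares 168 exonic bases and was higher in C57BL/6J too, at 48.9 CPM against 23.4 and 24.5. Trpv1, the ion channel opened by heat and capsaicin, was at 4.97 ± 0.539 CPM against 0.588 ± 0.186 and 0.0771 ± 0.0428. Of 20 other TRP channel genes tested, 5 were higher and 11 lower in C57BL/6J than in CAST/EiJ, and 3 were higher and 8 lower than in NZO/HlLtJ. Trpm6, a magnesium channel, was the clearest of those higher than in both, at 36.4 CPM against 11.8 and 15.4.

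Lhfpl3, a tetraspan membrane protein gene, split the other strains, with 3.70 CPM for C57BL/6J, 0.101 to 0.168 CPM for CAST/EiJ and 0.203 to 0.612 CPM for NZO/HlLtJ. Nnmt, which methylates nicotinamide, was at 3.26 ± 0.334 CPM against 0.156 ± 0.141 and 0.111 ± 0.0587. Art1, an ADP-ribosyltransferase of the cell surface, was at 4.72 ± 0.376 CPM against 0.168 ± 0.0391 and 0.464 ± 0.226. Aox4, an aldehyde oxidase, was at 3.83 ± 0.383 CPM against 0.329 ± 0.0732 and 0.948 ± 0.314. Pcsk2, a convertase of prohormones, was at 2.55 CPM, Meox1, a homeobox gene, at 2.28 CPM and Trim12a, of the tripartite motif family, at 3.46 CPM in C57BL/6J, with every other mean at or under 0.570 CPM.

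Immune genes and markers of other cells were read beside the lists of cell type markers. In whole testis, fewer cells of a type and less RNA per cell cannot be told apart. Cd5l, a scavenger receptor protein secreted by macrophages, stood at 4.61, 5.49, 6.26 and 5.79 CPM in C57BL/6J on 10% fat and at 4.95, 4.87, 7.18 and 5.89 CPM on 44% fat. It lay between 0.171 and 0.527 CPM in CAST/EiJ and between 0 and 0.220 CPM in NZO/HlLtJ. The 12 macrophage markers did not follow it: 3 were higher and 4 lower in C57BL/6J than in CAST/EiJ, and 0 were higher and 9 lower than in NZO/HlLtJ. Their summed level ran from 102 to 128 CPM for C57BL/6J, 107 to 120 for CAST/EiJ and 128 to 184 for NZO/HlLtJ, with none of the markers at 0. Of 9 other macrophage scavenger receptors tested, 1 was higher and 6 lower than in CAST/EiJ, and 2 were higher and 7 lower than in NZO/HlLtJ. Traf1, a signalling adaptor of TNF receptors, was between 5.61 and 6.99 CPM in C57BL/6J, with other means of 1.01 ± 0.241 and 0.673 ± 0.290.

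Other cell type lists moved with strain, and their part in the members' differences was not tested. Of 10 peritubular myoid markers, 8 were higher and 0 lower in C57BL/6J than in CAST/EiJ, and 1 was higher and 6 lower than in NZO/HlLtJ. Their summed level was 382 to 422 CPM in C57BL/6J, 217 to 251 in CAST/EiJ and 411 to 458 in NZO/HlLtJ. Of 5 lymphocyte markers tested, 4 were higher and 1 lower than in CAST/EiJ, and 1 was higher and 0 lower than in NZO/HlLtJ, at summed levels of 3.66 to 5.77, 2.55 to 3.83 and 3.87 to 5.11 CPM. Klr receptors, lectin-like proteins of natural killer cells, had 8 of 10 higher and 1 lower than in CAST/EiJ and 3 higher and 2 lower than in NZO/HlLtJ, with Klrb1 at 14.5, 0.0664 and 15.2 CPM. Of 12 round spermatid markers, 4 were higher and 4 lower than in CAST/EiJ, and 11 were higher and 0 lower than in NZO/HlLtJ. The 12 elongating spermatid markers had 1 higher and 4 lower, and 11 higher and 0 lower. Markers of Sertoli, Leydig and endothelial cells ran the other way against NZO/HlLtJ, with 0 of 12, 3 of 12 and 0 of 8 higher and 9, 8 and 7 lower. Higher than in both strains were 1 peritubular myoid, 1 lymphocyte, 3 round spermatid, 1 elongating spermatid, 2 Leydig cell and 0 Sertoli or endothelial markers and 3 Klr genes (14.5% of all genes). In the lists of spermatogonia, spermatocytes, adipose tissue and red blood cells it was 0 to 2.

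Rnase10, a ribonuclease A relative best known from the epididymis, had a ratio of 59.6. Its C57BL/6J libraries lay between 3.98 and 4.91 CPM. CAST/EiJ libraries ran from 0 to 0.127 CPM and NZO/HlLtJ libraries from 0 to 0.261 CPM. It was the only member on a list of cell type markers, that of epididymis. Of the 10 genes on that list 6 were in the table, and of 2 others tested 0 were higher in C57BL/6J than in either strain. Crisp1 was at 1.85 ± 4.51, 13.9 ± 36.7 and 0.0412 ± 0.0782 CPM (edgeR, adjusted p = 0.660 and 0.309) and Wfdc10 at 7.15, 9.88 and 7.84 CPM (adjusted p = 0.000123 and 0.654). The SD of Crisp1 exceeded its mean in each strain, so its means and the medians that include it can rest on few libraries. The median log2 difference of Crisp1 and Wfdc10 was -0.94 from CAST/EiJ and 2.04 from NZO/HlLtJ. No strain mean of Defb20, Adam28 or Cst11 was over 0.0962 CPM. The summed level of the list ran from 6.04 to 20.8 CPM for C57BL/6J, 8.05 to 108.4 for CAST/EiJ and 6.19 to 11.5 for NZO/HlLtJ.

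Near copies were found for 8 members. A copy here is a transcript of another gene with at least 85% identity over at least 50% of the member. The counts of a member and its copies were summed per library, since estimated counts divide shared reads between them. Ppp1r2-ps1 alone was at 14.3 ± 0.911 CPM in C57BL/6J and 1.23 ± 0.238 in CAST/EiJ. In NZO/HlLtJ an estimated 2 counts were seen in all 8 libraries together (2.24 before rounding), a ratio to C57BL/6J of 0.000473. Its exact 95% interval, from 5.73e-05 to 0.00171, covers counting error only and not the spread between libraries. Nor does it cover how reads were divided among copies, and 80.7% of the windows of Ppp1r2-ps1 are shared. The interval is no test, since the rule chose the gene on these values. Summed with its 5 copies, Ppp1r2-ps1 was at 196 ± 3.52, 166 ± 4.08 and 164 ± 6.83 CPM, 1.18-fold. Ppp1r2-ps6, whose window differs at 1 position, was at 41.3, 76.6 and 19.2 CPM.

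The zinc finger pseudogene kept a strain difference when summed with its closest copies. Znf41-ps alone was at 60.2 ± 4.83, 2.17 ± 0.421 and 1.25 ± 0.264 CPM. Gm13139 was at 75.4, 8.66 and 3.43 CPM and Gm13251 at 91.4, 9.14 and 4.30 CPM. The 3 together were at 227 ± 15.4, 19.96 ± 1.76 and 8.98 ± 0.756 CPM, 11.4-fold. Adding the copies down to 85% identity, 11 in all, gave 239 ± 16.3, 91.4 ± 7.85 and 122 ± 12.8 CPM, 1.96-fold, since Gm13225 ran the other way at 0.754, 63.1 and 95.7 CPM. Gm26763, the neighbour of Znf41-ps, was at 11.05, 1.85 and 0.238 CPM.

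BC061237, an uncharacterised coding gene on chromosome 14, has 10 copies of 89.5 to 96.7% identity in the table, all on that chromosome. Alone it was at 35.8 ± 3.14 CPM in C57BL/6J and 2.12 ± 0.281 in CAST/EiJ. In NZO/HlLtJ 1 library stood at 0.104 CPM and the others at or under 6.07e-09 CPM, an estimate of no read. The sum of the family ran the other way, at 266 ± 28.0, 566 ± 27.9 and 349 ± 20.3 CPM, with 1700001F09Rik at 76.7, 265 and 190 CPM. BC061237 also sits between Gm5930 and Gm5624, which were high in C57BL/6J at 7.54 and 5.61 CPM with every other mean at or under 0.555 CPM.

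RP23-361O12.4, a pseudogene 99.9% identical to Dennd4c, was at 2.71 ± 0.472, 0.0517 ± 0.0536 and 0.0522 ± 0.0990 CPM. With Dennd4c, a gene of a regulator of Rab GTPases, the sum was 87.8, 58.0 and 91.8 CPM, 0.957-fold. BB287469 with its 99.8% copy Gm4027 was at 5.60, 1.98 and 0.176 CPM, 2.83-fold, and with all 3 copies in the table, among them the translation initiation factor gene Eif1a, at 64.6, 59.7 and 60.9 CPM, 1.06-fold. Aldh1a7 summed with its paralogue Aldh1a1 (89.1% identity) was at 240, 205 and 235 CPM, 1.02-fold, although only 1 of its 1967 windows was shared. Klk1b26, a tissue kallikrein protease at 5.55 ± 0.955, 0.387 ± 0.214 and 0.215 ± 0.0860 CPM alone, summed with 6 relatives to 56.9, 65.5 and 29.7 CPM. Lipo2, of a lipase family, summed with Lipo4 to 4.003, 0.242 and 0.215 CPM, 16.5-fold, and was the 1 of the 8 that stayed at or above 4-fold. A sum follows its most abundant gene, so its ratio does not tell whether the member itself kept a difference. In C57BL/6J, Aldh1a1 was at 226, Dennd4c at 85.1 and Eif1a at 58.8 CPM, and Lipo4 at 0.0564 CPM.

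**Figure D3:**
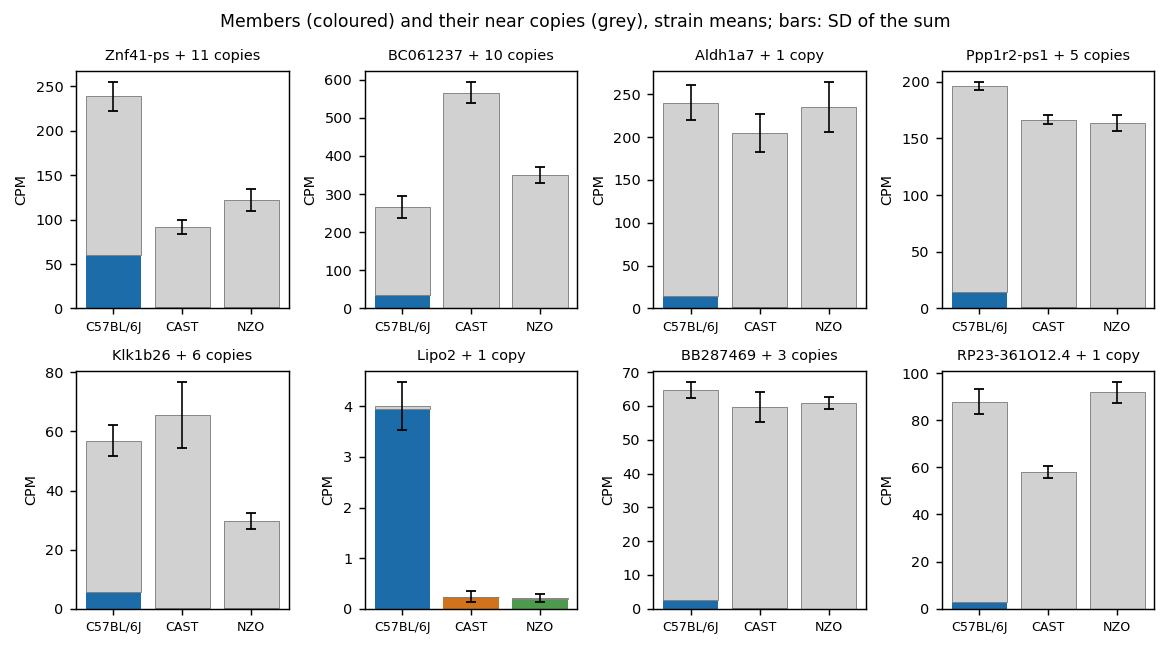
Strain means in CPM of the 8 members with near copies (coloured) and of those copies (grey, stacked), on linear axes from 0, with bars for the SD of the sum. The sum is 16.5-fold higher in C57BL/6J for Lipo2 and 1.96-fold for Znf41-ps, and between 0.469 and 1.18 times the higher other strain for the remaining 6.

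Long non-coding RNAs were a large share of the members. By GENCODE M21 type, 31 members were protein coding (64.6%), 14 were long non-coding RNAs (29.2%) and 3 were pseudogenes (6.25%). The second class holds 10 antisense RNAs, 1 long intergenic RNA and 3 single-exon genes of the provisional type TEC (RP23-175F18.1, RP24-88J19.3 and RP24-88J19.4), which were merged into it. Among the 12627 genes that the naming filter kept and that had at least 2 CPM in C57BL/6J, these classes were 97.5%, 1.85% and 0.626%. Of the 6 members with clone names, 5 carry Gm names and 1 a Rik name in GENCODE M21, so another release would have dropped them. Non-coding members were low, from 2.08 CPM (RP24-88J19.4) to 15.5 CPM (Sox5os3) in C57BL/6J.

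Most non-coding members lie opposite or beside a coding gene. For 11 members with 12 such partners, 4 partners were higher in C57BL/6J than in both strains, 2 lower and 6 neither, against 14.5% and 13.5% of all genes, and 0 reached 4-fold over both. The sources used here do not say whether the counting used strand, so reads from shared exons of a gene and its antisense partner cannot be told apart. Sox5os3 was at 15.5 ± 1.28 CPM against 1.36 ± 0.245 and 0.598 ± 0.209. Sox5, a transcription factor gene with which it shares no exonic base, was at 136, 116 and 122 CPM. It was called higher in C57BL/6J than in both strains, by 0.20 ± 0.04 and 0.23 ± 0.04 (log2, SE). RP24-225H21.4 was at 9.11 ± 1.74 CPM against 0.0842 ± 0.0801 and 0.0992 ± 0.0480, a ratio of 91.8, while Homer2, a synaptic scaffold gene opposite it, was lower in C57BL/6J, at 1.62, 2.08 and 3.18 CPM.

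Mxra8os and Ctcflos lie opposite coding genes that were also higher in C57BL/6J. Mxra8os was at 2.54, 0.347 and 0.340 CPM and Mxra8, a cell adhesion protein gene, at 68.2 ± 3.29, 7.37 ± 0.732 and 21.2 ± 1.56 CPM. Ctcflos was at 2.35, 0.272 and 0.415 CPM and Ctcfl, the testis relative of the chromatin insulator protein CTCF, at 3.34 ± 0.317, 1.25 ± 0.351 and 1.45 ± 0.243 CPM. Slfn5os, at 4.88, 0.271 and 0.0475 CPM, overlaps Unc45b, a myosin chaperone gene that was higher in C57BL/6J at 5.99, 1.01 and 3.35 CPM, and Slfn5, which was lower at 4.96, 6.92 and 7.09 CPM. Nudt12os, at 3.99, 0.0185 and 0.255 CPM, stood against Nudt12, a NADH pyrophosphatase gene, at 4.53, 20.02 and 5.21 CPM. There the non-coding RNA was at its lowest in CAST/EiJ, where the coding gene was at its highest.

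The other partners were called neither higher nor lower in C57BL/6J than in both strains. Kif16bos was at 3.39 ± 0.419 CPM in C57BL/6J and 0.0824 ± 0.0602 in NZO/HlLtJ. In CAST/EiJ 1 count was seen in all 7 libraries together, a ratio to C57BL/6J of 0.000997 (exact 95% interval 2.52e-05 to 0.00557). This interval covers counting error only and is no test, since the rule chose the gene on these values. The motor protein gene Kif16b was at 64.6, 69.6 and 71.9 CPM. Tbc1d22bos, at 4.48, 0.101 and 0.119 CPM, has the partner Tbc1d22b at 48.3, 67.2 and 48.5 CPM. RP23-175F18.1, at 5.93, 0.108 and 1.40 CPM, lies opposite Tmem159 at 5.16, 3.80 and 5.19 CPM. Kcnab3os, at 3.57, 0.634 and 0.852 CPM, lies opposite Kcnab3 at 7.61, 7.35 and 7.27 CPM. Etaa1os, at 5.29, 1.10 and 0.608 CPM, lies beside Etaa1 at 7.04, 6.12 and 7.53 CPM.

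**Figure D4:**
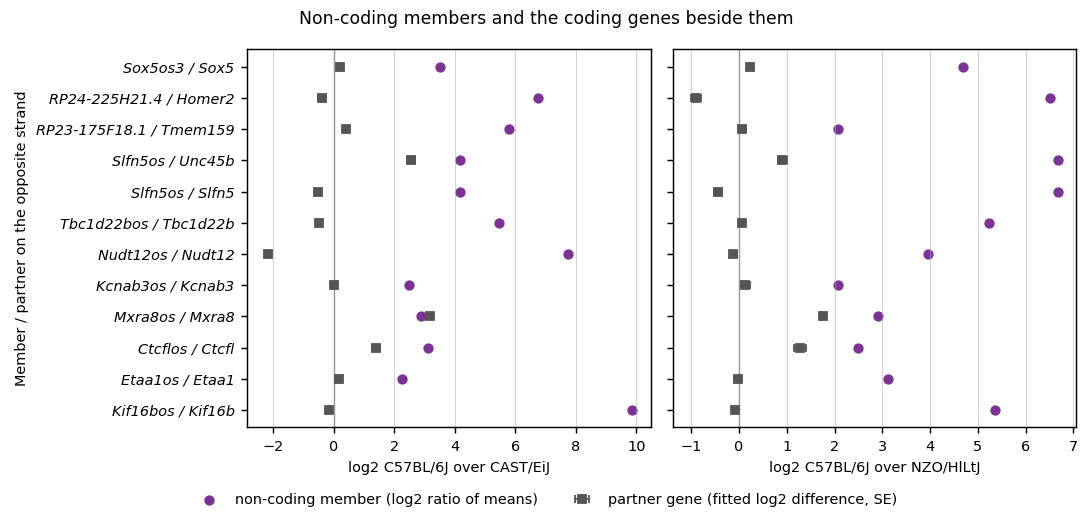
log2 of C57BL/6J over CAST/EiJ (left) and over NZO/HlLtJ (right) for non-coding members (circles, ratio of mean CPM) and the coding genes opposite or beside them (squares, fitted difference with SE). Unc45b, Mxra8 and Ctcfl lie furthest above 0, and Nudt12 (against CAST/EiJ) and Homer2 (against NZO/HlLtJ) furthest below it. Slfn5 lies at -0.52 on the left and -0.44 on the right. On the left Tbc1d22b lies at -0.50, Homer2 at -0.40 and Tmem159 at 0.41. The remaining partner points lie nearer 0. The Kif16bos circle on the left rests on 1 count in CAST/EiJ.

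The loci were scattered over the genome. The members lay on 17 chromosomes, with 8 on chromosome 7 (16.7% of members against 8.23% of the genes in the table), 6 on chromosome 11 and none on 10, 15, 18 and Y. One pair of members lay within 200 kb, the non-coding genes RP24-88J19.3 and RP24-88J19.4 on chromosome 7, which are 9781 bases apart. They stood at 5.04 and 2.08 CPM for C57BL/6J, 0.480 and 0.269 for CAST/EiJ and 0.125 and 0.123 for NZO/HlLtJ. Of the 93 nearest neighbours with at least 2 CPM in some strain, 18 (19.4%) were higher in C57BL/6J than in both strains and 16 (17.2%) lower. Of all genes tested it was 14.5% and 13.5%. These were not held to that level, so nothing is read from the gap. Only 5 were at least 2-fold higher than both, namely Gm26763, Pvrl4, Gm5930, Gm5624 and Klk1b9, and the median ratio of the neighbours was 0.859. Among these, 3 were at least 4-fold higher (Gm26763, Gm5930 and Gm5624), so they met the rule and were dropped for their names alone. Gm26763 lies 113269 bases from Znf41-ps, and Gm5930 and Gm5624 lie 161538 and 50450 bases from BC061237. The naming filter thus removed genes close to members, and the scatter describes only those kept. The neighbours of Agt were close to level, with Cog2 at 35.7, 39.2 and 38.1 CPM and 2310022B05Rik at 19.97, 18.6 and 23.2 CPM.

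To test the strain difference on libraries that had not chosen the genes, the rule was applied to 1 diet and the result tested on the other with edgeR. On 10% fat alone the rule chose 48 genes, of which 47 could be tested on 44% fat. Of these, 46 were higher in C57BL/6J than in CAST/EiJ and 46 higher than in NZO/HlLtJ, against 31.1% and 25.5% of all genes on that diet, with medians of 3.65 and 5.01 on the log2 scale. Chosen on 44% fat were 46 genes, and all 46 were higher on 10% fat than in CAST/EiJ and than in NZO/HlLtJ, against 27.1% and 19.4% of all genes, with medians of 3.44 and 4.57. At least 4-fold differences were kept by 44 and 44 genes in the first test and by 44 and 43 in the second. Genes chosen on both diets numbered 41, and all of them were among the 48 members. A rule that averages over both diets nearly fixes this in advance, and nothing is read from it.

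The exceptions were 2 genes of secreted proteins. Muc5b, a gel-forming mucin chosen on 10% fat, stood on 44% fat at 5.50 CPM in C57BL/6J against 5.68 in CAST/EiJ and 5.34 in NZO/HlLtJ (edgeR, adjusted p = 0.719 and 0.529). Crisp1, a secretory protein gene of the epididymis chosen on 10% fat, was at 0.112 CPM on 44% fat in C57BL/6J and 24.3 CPM in CAST/EiJ, and did not enter the test there. Over both diets its SD exceeded its mean in each strain, so such means can rest on few libraries. Neither gene was among the 48 members. The same strains' genomes were measured on both diets, so the test bears on the spread between libraries and not on alignment.

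Diet did not move the members beyond the threshold in any strain. None of the 48 was called between 44% and 10% fat (edgeR, adjusted over 22873 genes), against 0.00874% of all genes for C57BL/6J, 0% for CAST/EiJ and 0.00437% for NZO/HlLtJ. DESeq2 and limma also called 0 in each strain. For many members this test had little to work on outside C57BL/6J: by CAST/EiJ counts alone 34 passed the filter on low counts and by NZO/HlLtJ counts alone 29, and the remaining 14 and 19 entered through the counts of other strains. Totals of those over the strain's libraries were 1 to 72.1 counts in CAST/EiJ and 2.24 to 74.6 in NZO/HlLtJ, so a count of 0 says little for them. Without adjustment, p was under 0.05 in C57BL/6J for 0 members higher and 1 lower on 44% fat (1.3% and 1.63% of all genes), in CAST/EiJ for 1 and 8 (2.21% and 1.9%), and in NZO/HlLtJ for 5 and 3 (3.68% and 3.12%). Of these, 3 in CAST/EiJ and 2 in NZO/HlLtJ were among the members that did not pass the filter on the strain alone. In C57BL/6J, where the members are high, their log2 differences ran from -0.59 to 0.30 with a median of 0.00 and a median SE of 0.17. In CAST/EiJ and NZO/HlLtJ, where counts are few, the medians were -0.16 and -0.11 and the median SEs 0.31 and 0.29. A change of diet effect between strains was called for 0 members in each of 3 comparisons, against 0% of all genes. Without adjustment p was under 0.05 for 9 members between C57BL/6J and CAST/EiJ (4.02% of all genes), 6 between C57BL/6J and NZO/HlLtJ (4.05%) and 7 between NZO/HlLtJ and CAST/EiJ (7.45%). Members with few counts in a strain are among these, so nothing is read from their number. Counts over the strain's libraries were 3.60 and 15.1 in NZO/HlLtJ for BC061237 and RP23-361O12.4, and 21.6 in CAST/EiJ for RP24-225H21.4.

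The smallest p values did not mark a common set of genes. In C57BL/6J, Aldh1a7 was at 15.7 CPM on 10% and 12.9 CPM on 44% fat, a log2 difference of -0.28 ± 0.12, BB287469 at 3.31 and 2.17 CPM and Kcnab3os at 3.21 and 3.94 CPM (edgeR, adjusted p = 1 for each). In CAST/EiJ, Ctcflos was at 0.422 and 0.160 CPM (edgeR, adjusted p = 0.636), Nnmt at 0.279 and 0.0647 CPM (0.663) and Klk1b26 at 0.551 and 0.264 CPM (0.949). In NZO/HlLtJ, Ccl28 was at 0.542 CPM on 10% and 0.223 CPM on 44% fat, a log2 difference of -1.27 ± 0.28 (edgeR, adjusted p = 0.267). Its 4 libraries on 10% fat, 0.523, 0.498, 0.484 and 0.662 CPM, all lay above the 4 on 44% fat, 0.194, 0.220, 0.157 and 0.319 CPM. RP23-361O12.4 had 15.1 counts over all NZO/HlLtJ libraries. On 10% fat it stood at 6.07e-07, 0.249, 1.73e-05 and 0.169 CPM, a mean of 0.104 CPM. On 44% fat it was at or under 6.26e-07 CPM in each library. Values at or under 1.73e-05 CPM are estimates of no read, so both diets had libraries without any. Trim12a in NZO/HlLtJ was at 0.436 and 0.704 CPM (edgeR, adjusted p = 0.720 for both genes). Agt in C57BL/6J was at 173.7 ± 11.4 CPM on 10% and 183.5 ± 14.2 CPM on 44% fat (n = 4 each), a log2 difference of 0.09 ± 0.10.

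**Figure D5:**
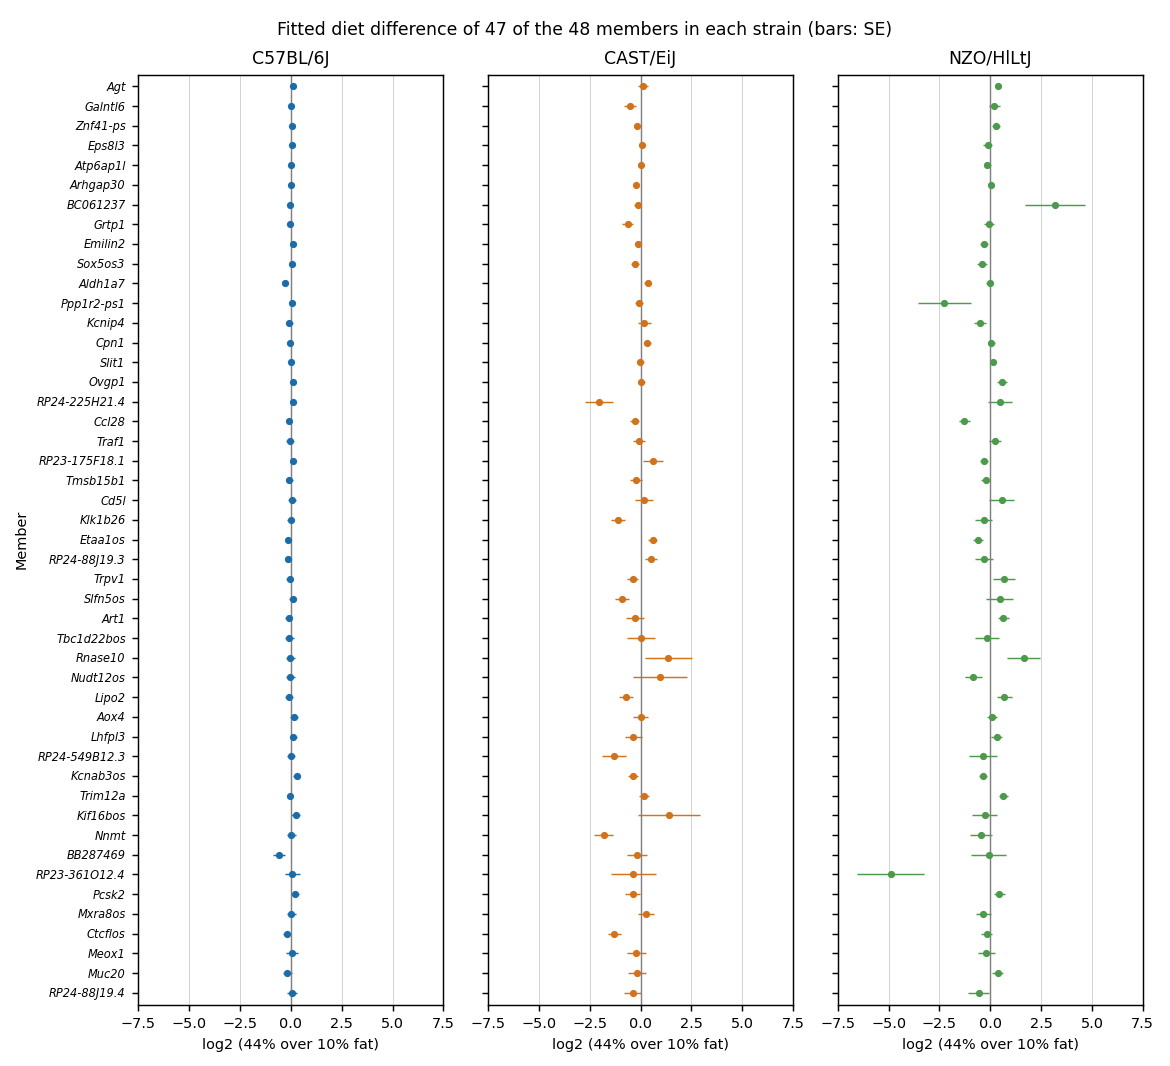
Fitted log2 difference between 44% and 10% fat with its SE for 47 of the 48 members in C57BL/6J, CAST/EiJ and NZO/HlLtJ, ordered as by C57BL/6J mean. In C57BL/6J the points stay between -0.59 and 0.30, and the wide bars in the other strains belong to members with few or no reads there, such as RP23-361O12.4 and BC061237 in NZO/HlLtJ.

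The families of the coding members were read from lists made after the members were known. Among tissue kallikreins other than Klk1b26, 3 of 11 tested were higher and 7 lower in C57BL/6J than in CAST/EiJ, and 7 were higher and 1 lower than in NZO/HlLtJ. Among chemokine ligands other than Ccl28, 6 of 19 were higher and 3 lower than in CAST/EiJ, and 3 were higher and 2 lower than in NZO/HlLtJ. Among Eps8 relatives, 2 of 3 were higher in C57BL/6J than in CAST/EiJ and 2 than in NZO/HlLtJ, with 0 lower in either. Slit and Robo genes other than Slit1 were mixed, with 2 of 6 higher and 3 lower in each comparison. In the remaining lists, genes higher and lower than in both strains were counted. They were 1 and 2 of 7 proprotein convertases, 0 and 2 of 3 aldehyde oxidases and 0 and 1 of 6 TNF receptor associated factors. Retinal dehydrogenases and Kv channel interacting proteins each had 0 and 1 of 3. GABA-A receptor subunits, ecto-ADP-ribosyltransferases, ribonucleases and EMILIN genes had 0 and 0.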

How the data were processed

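Testis RNA was sequenced as 23 libraries of 100 bp read pairs, per the labels. The authors deposited estimated counts per gene, of which 23.1% were not whole numbers (tolerance 1e-06). A second deposited table holds variance-stabilised log2 values by the authors, used here only in limma. The submitters' processing notes name GRCm38 and DESeq2. The sources used here name no aligner, counting tool, use of strand or treatment of strain variants. Each gene in the table had a value above 0 in at least 12 of 23 libraries, so a gene without any count in both CAST/EiJ and NZO/HlLtJ could not be among the members.

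CPM used column totals. Tests used rounded estimated counts with the edgeR 4.0.16 quasi-likelihood F test (R 4.3.3, TMM, filterByExpr, 6 groups in 1 fit, Benjamini-Hochberg over 22873 genes, threshold 0.05), and adjusted p values are from it. Alternatives used DESeq2 1.42.0 and limma 3.58.1. Fits were tested on simulated data. Copies were found with blastn 2.17.0 among GENCODE M21 transcripts, in which all 48 members and 99.3% of the genes in the table were found. Promoter sequences are from RefSeq (GRCm38.p6). Intervals reflect counting error alone, as PCR duplicates are not independent.

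Members named are the 25 with the highest C57BL/6J mean, the 10 with the largest ratio, the 3 with the smallest diet p per strain, pairs within 200 kb, those at the 4-fold limit, and others for their function. The values of 1 member are not reported here, though it is in the counts. Genes of lists, neighbours, partners and copies that are named beside members were picked with their values seen. The members and lists were chosen with earlier results of these data known.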

Additional observations from a re-analysis of the deposited data

Results flagged for a closer look

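In 11 of the 230 groups of 4 libraries of 47 members in which a library had at least 3 counts, 1 library stood apart from the other 3 by Dixon's 95% criterion. About 1 in 20 groups, here 11.5, would be marked by chance. In C57BL/6J on 10% fat, BC061237 was highest in replicate 4 at 41.1 CPM, with the others between 35.0 and 35.3 CPM. In C57BL/6J on 44% fat, Slit1 was highest in replicate 1 at 11.8 CPM, with the others between 9.63 and 9.84 CPM. In replicate 3 of that group, Aox4 was lowest at 3.80 CPM and Trim12a highest at 3.76 CPM. In CAST/EiJ on 44% fat, Nudt12os was highest in replicate 3 at 0.0854 CPM, with the others at or under 0.0127 CPM. In NZO/HlLtJ on 10% fat, Sox5os3 was highest in replicate 2 at 1.05 CPM, RP23-175F18.1 lowest in replicate 2 at 0.941 CPM and Slit1 lowest in replicate 3 at 1.15 CPM. In NZO/HlLtJ on 44% fat, BC061237 was highest in replicate 4 at 0.104 CPM, Nudt12os lowest in replicate 1 at 0.0555 CPM and RP24-549B12.3 highest in replicate 4 at 0.156 CPM. All C57BL/6J values named here lay above every CAST/EiJ and NZO/HlLtJ value of the same gene.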

How the results depend on the processing

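The number of members depended on the limits of the rule. It was 25 with a minimum of 5 CPM and 27 with an 8-fold limit, and 59 with 1 CPM, 69 with 3-fold, 47 with TMM-scaled totals, 47 with medians, and 48 and 46 on 10% and 44% fat alone. Leaving out 1 library at a time gave 47 to 49 members. Aox4, Ovgp1, Kcnab3os or RP24-88J19.4 was lost and Tnfsf13os gained. Diet calls among members stayed at 0 in each strain with DESeq2, limma, no filter on low counts, the runs of sample ID numbers in the model, the strain's groups alone (34 members tested in CAST/EiJ and 29 in NZO/HlLtJ, 48 elsewhere) and each library left out (0 to 0). Counts of genes chosen on 1 diet and higher on the other stayed at 46 in all 4 tests with DESeq2, with no filter and with each library left out (46 to 46). Of 225 list genes tested that are not members, 150 differed between C57BL/6J and CAST/EiJ (150 of 240 with DESeq2, 145 with the ID runs). Over all 22873 genes tested 15279 differed, so the list genes were close to that share. Between C57BL/6J and NZO/HlLtJ 152 of the 225 differed (151 of 240 and 152), against 13520 of all 22873 genes. Summed with all genes of the same symbol stem, 4 of 26 members with such relatives stayed at or above 4-fold (Eps8l3, Sox5os3, Cpn1 and Meox1). With copies found by sequence, an alternative added after the data were seen, it was 1 of 8. Both counts depend on how abundant the relatives are, so they are no check on the members. Trim12a, at 3.46 CPM in C57BL/6J, was summed with 63 genes of its stem to 4252 CPM, where 4-fold was out of reach. No paired analysis was possible because the labels carry no replicate numbers. The few counts of members in CAST/EiJ and NZO/HlLtJ limit what could be seen of diet there.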
